A study of Mus musculus with 45 samples.

Results

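Binding of the circadian repressor REV-ERBα was examined at 5 mouse genes of xenobiotic metabolism: Nr1i2, Nr1i3, Ahr, Arnt and Por. A site is a peak of the ZT10 or ZT22 list whose summit lies inside the mm10 span of one of these genes or up to 50 kb from it. This rule gave 31 of the 27929 peaks at ZT10 and 0 of the 36 peaks at ZT22. The genes themselves are 5 of 21631 protein-coding genes of the autosomes and X. The series holds 45 chromatin immunoprecipitation sequencing (ChIP-seq) samples of mouse liver in 18 groups, and 8 samples in 2 groups are used here. All 8 livers were of genotype REV-ERBa3HA/3HA, in which endogenous REV-ERBα carries an HA epitope tag, and none received AAV. Each was immunoprecipitated with anti-HA magnetic beads, 4 at zeitgeber time 10 (ZT10, hour 10 of the light-dark cycle) and 4 at ZT22. Ages of the mice are not given in the sources used here, and untagged B6-WT liver treated with the same beads was not analysed here. The submitters pooled the 4 samples of a time into 1 peak list, so a site has 1 value per time, with no spread between animals and no test between the times.

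REV-ERBα is a heme-binding nuclear receptor that lacks the activation helix of its relatives and represses genes by recruiting the NCOR and HDAC3 corepressors. It binds an AGGTCA half-site with an A/T-rich flank, the ROR response element (RORE), or a pair of such half-sites, and can also reach DNA through other liver factors. Nr1i2 encodes the pregnane X receptor (PXR) and Nr1i3 the constitutive androstane receptor (CAR), which pair with RXR and induce P450, conjugation and transporter genes in hepatocytes. Ahr encodes the aryl hydrocarbon receptor, a PAS-domain factor that moves to the nucleus on ligand binding, pairs with the product of Arnt and induces the Cyp1 genes. ARNT is also the partner of hypoxia-inducible factors. Por encodes the flavoprotein that passes electrons from NADPH to all microsomal P450 enzymes, and to heme oxygenase and squalene epoxidase as well.

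Promoter sequences are shown for the 4 genes in the RefSeq promoter table (build GRCm38.p6, which shares its coordinates with mm10), because each of these promoters lay under a ZT10 peak. The 250 bases before the annotated start are printed 5′ to 3′ on the strand of the gene. Capitals mark the matches to the motifs searched. The Nr1i2 promoter, with no match, is chr16:38294825-38295074 on the minus strand, Nr1i3 is chr1:171213720-171213969, Arnt is chr3:95434140-95434389 and Por is chr5:135688895-135689144, all 3 on the plus strand. Ahr has no entry in the table.
Nr1i2: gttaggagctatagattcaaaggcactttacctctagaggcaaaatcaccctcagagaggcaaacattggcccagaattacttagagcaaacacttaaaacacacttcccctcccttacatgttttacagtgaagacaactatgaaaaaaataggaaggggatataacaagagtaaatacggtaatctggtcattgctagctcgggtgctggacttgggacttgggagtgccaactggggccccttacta
Nr1i3: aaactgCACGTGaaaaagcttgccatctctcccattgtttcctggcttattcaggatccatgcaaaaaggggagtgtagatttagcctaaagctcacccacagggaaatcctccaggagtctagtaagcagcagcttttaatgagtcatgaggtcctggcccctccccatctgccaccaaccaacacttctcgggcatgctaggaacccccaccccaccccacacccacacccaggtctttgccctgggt
Arnt: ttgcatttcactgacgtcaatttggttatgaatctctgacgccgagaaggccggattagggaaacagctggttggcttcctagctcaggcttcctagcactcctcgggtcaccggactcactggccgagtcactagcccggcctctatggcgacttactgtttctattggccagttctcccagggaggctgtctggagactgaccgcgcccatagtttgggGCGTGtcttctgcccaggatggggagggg
Por: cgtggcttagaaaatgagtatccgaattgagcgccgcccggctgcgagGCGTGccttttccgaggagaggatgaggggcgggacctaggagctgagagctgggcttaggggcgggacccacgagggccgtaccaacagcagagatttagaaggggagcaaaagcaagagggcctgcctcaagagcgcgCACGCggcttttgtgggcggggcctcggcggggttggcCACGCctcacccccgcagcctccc

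The motifs were searched on both strands from 250 bases before to 50 bases after each start, in all 32851 promoters of the table. The half-site AGGTCA was found in 0 of the 4 promoters and in 16.3% of all promoters. RORE-type words, AGGTCA or GGGTCA directly preceded by AANT, were in 0 of 4 and in 0.219% and 0.216% of all. A tandem pair of AGGTCA with 2 bases between them was in 0 of 4 and in 0.00913% of all. The pair and the first RORE-type word contain the half-site, so their matches overlap with it. These absences say only that the letters do not occur in these windows. The Nr1i3 promoter held the E-box CACGTG, the word bound by CLOCK and BMAL1, 244 bases before the start, and 7.15% of all promoters hold it. The xenobiotic response element core GCGTG, the word bound by AHR with ARNT, was found once in the Arnt promoter, 29 bases before the start. It was found 3 times in the Por promoter, at 202, 62 and 24 bases before the start, the last 2 on the minus strand. This short word is in 32.4% of all promoters. The D-box TTATGTAA, which PAR bZIP factors and NFIL3 bind, was in 0 of 4 and in 0.938% of all. By base composition the Por promoter had 67.3% G and C and 27 CpG dinucleotides, and the Arnt promoter 59.3% and 19. Nr1i3 had 54.0% and 3, and Nr1i2 45.3% and 2, against medians of 52.7% and 7 over all promoters.

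All 4 of these promoters lay under a ZT10 peak, while 39.1% of the protein-coding genes in the table had a promoter under one. The summit lay close to the start at Arnt (139 bp downstream) and at Nr1i3 (370 bp upstream). At Por and Nr1i2 the peak that covered the promoter was wide, and its summit lay farther into the gene, 6482 bp and 6997 bp downstream of the start.

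Summits were strongest at Por, Nr1i3 and Nr1i2 and weaker at Ahr and Arnt. The fold is the peak's own enrichment over the local background as the authors gave it. Fold and −log10 p together gave the number of DNA fragments over each summit, whose 95% Poisson interval covers counting error only. The strongest Por site had a fold of 22.01 with 475 fragments (interval 433 to 519.7). The strongest Nr1i3 site had a fold of 21.7 with 468 fragments (427 to 512), and the strongest Nr1i2 site a fold of 21.6 with 466 fragments (425 to 510.3). The Nr1i3 value belongs to a peak nearer to Pcp4l1, and the strongest site with Nr1i3 as its nearest gene had a fold of 11.7. The intervals of the leading sites overlap, so the order of the 3 genes is not resolved. The lists come from whole liver, so binding in fewer cells and weaker binding in all cells cannot be told apart. The strongest Ahr site had a fold of 8.55 with 182 fragments (157 to 210.4), and the strongest Arnt site a fold of 6.70 with 166 fragments (142 to 193). The intervals of Ahr and Arnt overlap each other and lie below those of the other 3 genes.

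All 5 genes had a site within 50 kb, as did 70.5% of protein-coding genes, and all 5 had one within 10 kb, against 54.5%. A site of fold 10 or more lay within 50 kb of 3 of the 5, against 35.3% of genes, and a site of fold 20 or more at the same 3, against 8.98%. The strongest fold stood at percentile 93.8 of all protein-coding genes for Por, 93.4 for Nr1i3, 93.2 for Nr1i2, 58.2 for Ahr and 47.9 for Arnt, where genes without a site count as 0. The genes that stand highest by this rule include both xenobiotic nuclear receptors and the electron donor, while the AHR pair sits near the middle of all genes. Among genes with a site the median strongest fold was 10.02, above both Ahr (8.55) and Arnt (6.70). The place of Nr1i3 rests on the peak nearer to Pcp4l1. With only sites that have the gene itself as the nearest, Nr1i3 stays above a fold of 10 but not 20, and 2 of the 5 genes, Por and Nr1i2, reach a fold of 20. These values describe 1 pooled list, and genes not active in liver are among those ranked.

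**Figure D1:**
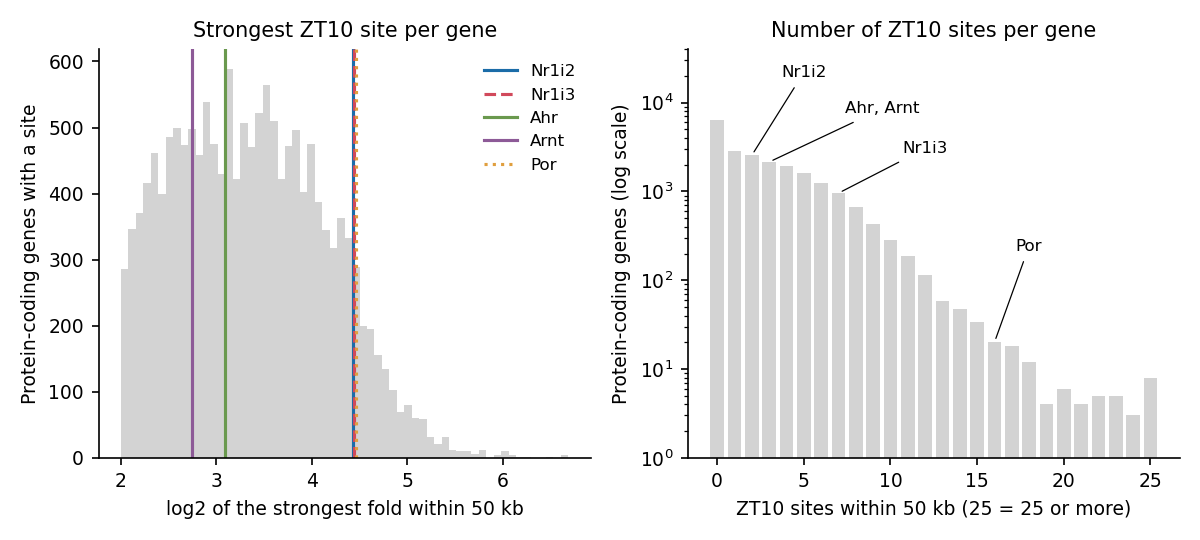
Left, a histogram of the log2 of the strongest ZT10 fold within 50 kb for protein-coding genes with a site, with a vertical line for each of the 5 genes. Right, the number of genes (log scale) by how many ZT10 sites lie within 50 kb, with the 5 genes marked. Por, Nr1i3 and Nr1i2 share a place in the upper tail on the left, while on the right Por (16 sites) stands apart from Nr1i2 (2 sites).

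The number of sites followed a different order. Por had 16 sites, Nr1i3 7, Ahr 3, Arnt 3 and Nr1i2 2, against a median of 2 over all protein-coding genes. This order depends on the assignment, as other genes lie in these windows. With only sites that have the gene itself as the nearest, Por had 9, Ahr 3, Arnt 3, Nr1i3 1 and Nr1i2 1, so Nr1i3 falls from the next place after Por to a tie for the last. With a reach of 10 kb, Por had 10 sites, Nr1i3 3, Arnt 3, Ahr 2 and Nr1i2 2. Within 50 kb, only 85 of 21631 genes, Por included, had 16 or more. Longer windows can hold more sites, and per 100 kb of window Por had 9.68, Nr1i3 6.67, Ahr 2.19, Arnt 1.84 and Nr1i2 1.37, with a median of 1.60 over all genes. Nr1i2 therefore combined few sites with a strong one, and Por many sites with several strong ones. These numbers depend on how enrichment was divided into peaks. The strongest Nr1i2 site was 1 peak of 18195 bp, while the 3 strongest Por peaks lay only 147 bp and 140 bp apart.

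**Figure D2:**
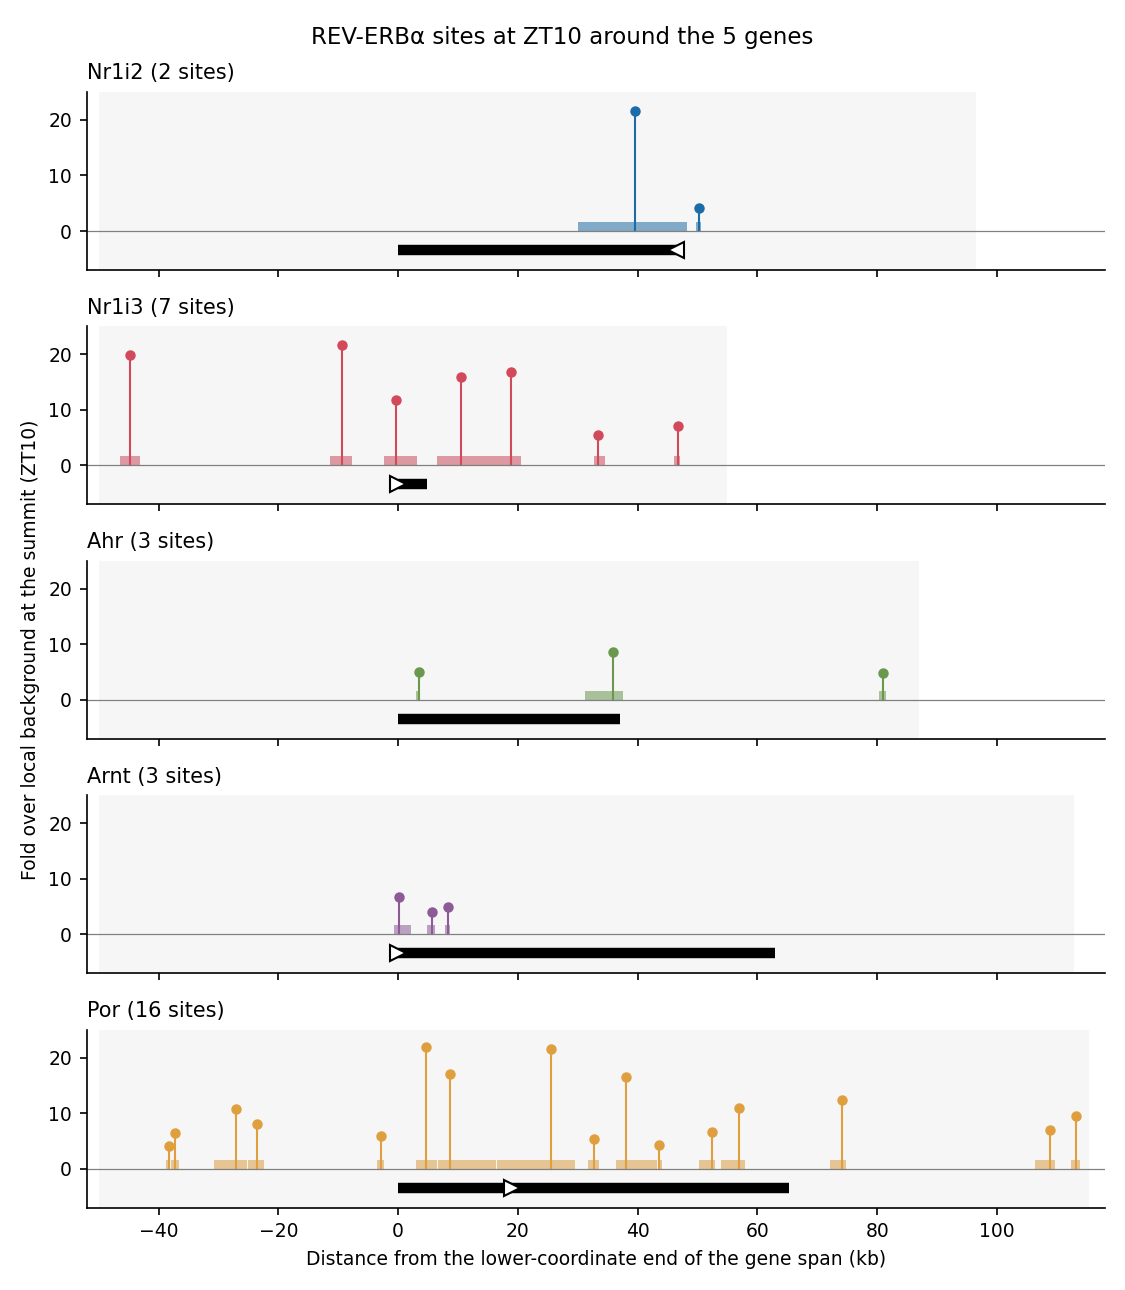
ZT10 sites around each gene, with distance from the lower-coordinate end of the gene span (kb) on the x axis and fold on the y axis. Stems mark summits, coloured bars at the baseline the peaks, the black bar the gene span, the white arrowhead the annotated start and its direction, and grey shading the window of 50 kb on each side. Por carries sites along its whole span, those of Arnt lie in the first 10 kb, and those of Nr1i3 all lie outside its short span.

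The pregnane X receptor gene Nr1i2 (chr16:38248349-38294849, minus strand) had 1 dominant site. Its peak, chr16:38278381-38296575, was 18195 bp wide, the 25th widest of the 27929, and ran from inside the gene across the promoter. Ranked by fold it was 982nd. The other site had a fold of 4.19 with 87 fragments (69.7 to 107.3), near the lowest fold of the list. Its summit lay 3834 bp upstream of the start and inside the neighbouring gene Maats1. Nr1i2 thus had a single strong site, and its second was close to the limit of detection.

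The constitutive androstane receptor gene Nr1i3 (chr1:171213934-171218845, plus strand) is 4.91 kb long and had 0 summits inside its span. The strongest of its 7 sites (fold 21.7, chr1:171202484-171206173) had its summit 9.41 kb upstream of the start. It lay between genes, 8292 bp from Pcp4l1 and 9374 bp from Nr1i3. The promoter peak, chr1:171211524-171217115, had a fold of 11.7 with 251 fragments (221 to 284), below the interval of the upstream site. It was the only one of the 7 for which Nr1i3 is the nearest protein-coding gene. The promoter peak reached into the gene, and peaks covered 64.8% of the span.

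Other Nr1i3 sites lay around neighbouring genes. One, 44.9 kb upstream of the start and 4172 bp from Pcp4l1, had a fold of 19.9 with 429 fragments (389 to 472). The next, inside Fcer1g, which encodes an Fc receptor subunit, had a fold of 16.8 with 423 fragments (384 to 465), where local background, as at the Arnt promoter, was 1.21 times the lowest of the list. The third, inside Apoa2, a gene of high-density lipoprotein, had a fold of 15.9 with 342 fragments (307 to 380.2) and was 11.1 kb wide. A weaker site lay inside Adamts4 (fold 7.08), which encodes a metalloprotease. Position alone does not tie any of these to Nr1i3.

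The redox partner gene Por (chr5:135670040-135735326, plus strand) had 8 sites inside its span and 8 around it. The annotated start of the promoter table lies 19.1 kb into the span, and 2 of the 8 inside sites were upstream of it. One of these was the strongest site (chr5:135673033-135676509), 14.4 kb upstream of that start but 4692 bp inside the lower end of the span. Second came the wide peak over the promoter (chr5:135686549-135699537), with a fold of 21.6 and 467 fragments (426 to 511). The third, chr5:135676657-135686408, had a fold of 17.1 with 368 fragments (331 to 408) and its summit 10.4 kb upstream of the start. Its interval lay below those of the first 2 sites. The fourth, chr5:135706489-135713232, had a fold of 16.5 with 355 fragments (319 to 394), 19.0 kb downstream of the start. The 4 strongest Por sites were all inside the span.

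The fifth Por site, chr5:135742113-135744824, had a fold of 12.4 with 265 fragments (234 to 299) and lay 8.89 kb beyond the span, 42 bp from Tmem120a. The remaining 11 sites had folds of 4.10 to 10.9. Of the 8 sites outside the span, 4 lay inside other genes, 2 in Rhbdd2 and 2 in Mdh2, which encodes the mitochondrial malate dehydrogenase. Peaks covered 64.7% of the Por span, and 501 genes, Por included, had as large a share covered. For Nr1i2 the share was 35.4%, for Ahr 17.2% and for Arnt 6.95%, with a median of 0 over all genes.

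The aryl hydrocarbon receptor gene Ahr (chr12:35497979-35534989) stands alone, with its nearest protein-coding neighbours over 300 kb away, and all 3 sites had it as the nearest gene. The strongest (chr12:35529261-35535502, 6242 bp wide) had its summit 1046 bp inside the upper end of the span. The second, with a fold of 5.11 and 107 fragments (87.7 to 129), lay 3481 bp inside the lower end. The third lay 44.0 kb above the span, with a fold of 4.76 and 137 fragments (115 to 162). Local background there was 1.45 times the lowest of the list, so its fold was the lower of these 2 although it held more fragments.

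Arnt (chr3:95434367-95497240, plus strand), whose product is the common partner of AHR and the hypoxia factors, had 3 sites, all inside the gene. The strongest was the promoter peak (chr3:95433690-95436604). The other 2 lay 8.30 kb and 5.61 kb downstream of the start, with folds of 4.93 (103 fragments, 84.1 to 125) and 4.10 (85 fragments, 67.9 to 105.1). Their intervals overlap each other and lie below that of the promoter peak. No other summit lay in the 62.9 kb span or within 50 kb of either end.

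**Figure D3:**
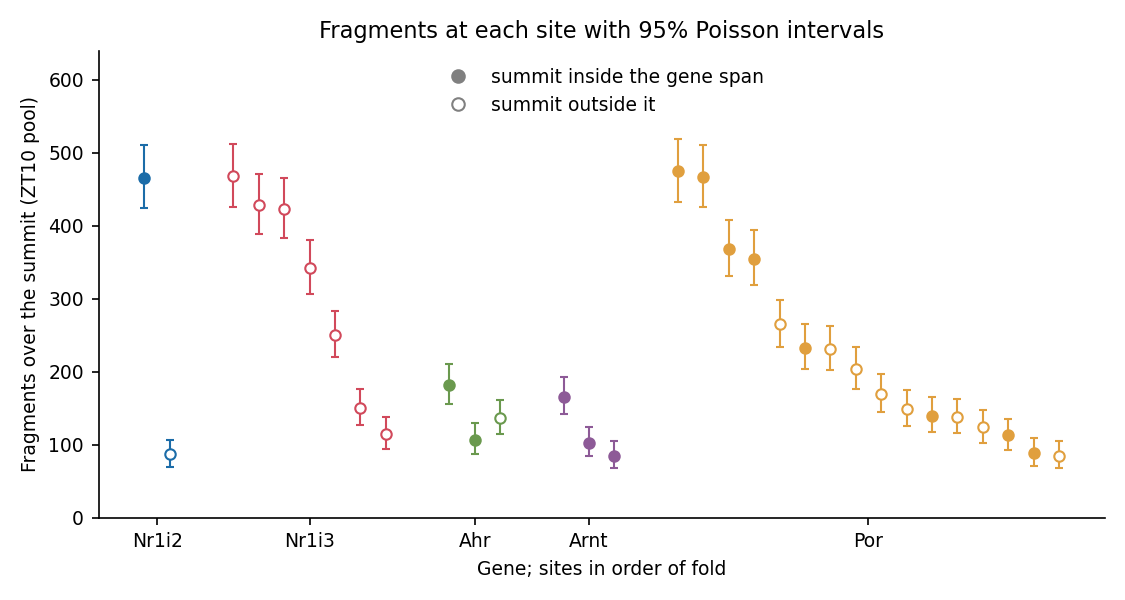
Fragments over the summit of each of the 31 sites at ZT10 (y axis), grouped by gene and ordered by fold, with 95% Poisson intervals. Filled points lie inside the gene span and open points outside it. The leading sites of Nr1i2, Nr1i3 and Por have intervals that lie within 425 to 519.7 fragments, and the sites of Ahr and Arnt hold 182 fragments or fewer.

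As a set, the 31 sites had a median fold of 8.003 against 6.81 for all ZT10 peaks, and 13 of 31 (41.9%) reached a fold of 10, against 27% of peaks. Of these 13, 7 were at Por, 5 at Nr1i3 and 1 at Nr1i2. Median width was 2739 bp against 1679 bp, and 8 of 31 sites (25.8%) were at least 5 kb wide, against 8.43% of peaks. Sites of a gene share a locus and are not independent, so no test was made. Summits inside the span of the gene they were assigned to made up 14 of 31 (45.2%). Summits inside any protein-coding gene made up 23 of 31 (74.2%), against 59.4% of all ZT10 summits, where each window of the 31 holds a gene by construction. For 14 of the 31 sites another protein-coding gene was nearer, and 9 of these lay inside it.

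**Figure D4:**
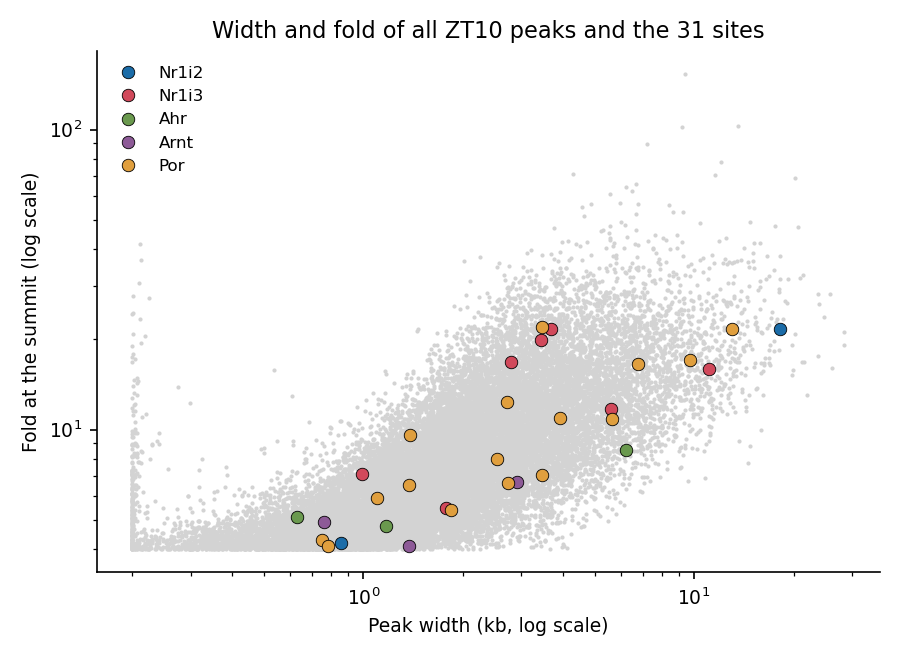
Width (kb) against fold for all 27929 ZT10 peaks in grey and the 31 sites in colour, both axes logarithmic. The strongest Nr1i2 site is among the widest of the list (18.2 kb), while Por and Nr1i3 have sites of nearly the same fold and 3.48 kb and 3.69 kb in width.

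At ZT22 none of the 5 genes had a site, as was the case for nearly all genes, since 0.157% of protein-coding genes had one within 50 kb. Of the 31 ZT10 sites, 0 were overlapped by a ZT22 peak, against 0.0859% of all ZT10 peaks. The nearest ZT22 summit lay 17.4 Mb from Por and over 50 Mb from each of the other 4 genes. Relative to ZT10 the depth of the ZT22 pool was 0.97, provided that both were called against 1 control. The weakest ZT22 peak had a fold of 4.08 with 82 fragments, so a weaker signal at these genes would not be listed. Against the shares over all genes and peaks, the count of 0 at ZT22 is not a result about these genes.

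Genes related to the 5, in 5 lists, were examined by their strongest ZT10 summit inside the span or within 10 kb. Of 55 genes, 52 had such a summit, where the share over all protein-coding genes is 54.5% and the median strongest fold of genes with one is 7.82. CAR and PXR targets had a summit at 18 of 18, with a median of 16.6 and 15 at a fold of 10 or more, against 19.1% of all protein-coding genes at that fold and reach. They were led by the P450 genes Cyp2b13 (fold 31.5), Cyp2b9 (27.4) and Cyp3a13 (26.9). The 6 hepatocyte markers described below came close, with a median of 15.3 and 5 at a fold of 10 or more. Strong sites are therefore not particular to CAR and PXR targets. AHR targets had one at 6 of 8, with a median of 10.5, led by the glutathione transferase gene Gsta2 (20.6) and the glucuronosyltransferase gene Ugt1a6a (19.996). Cyp1a1 and Cyp1a2, the classic AHR targets, both had 10.5, and Cyp1b1 and Aldh3a1 had none.

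Receptor partners and chaperones had a summit at 10 of 11, with a median of 7.93, led by Ppp1r16a (16.4), Dnajc7, a cochaperone (14.7), and the RXR gene Rxrg (10.8). The AHR repressor gene Ahrr had none. Coregulators had one at 8 of 8, with a median of 11.3, with Nr0b2 (36.4), a receptor-like corepressor, and the coactivator gene Ppargc1a (17.01) among the strongest. The list of redox partners and heme enzymes around POR had one at 10 of 10, with a median of 8.23. Not all of its genes work with POR, and Fdx1, Fdxr and Mtrr are among those that do not. The list was led by the cytochrome b5 gene Cyb5a (13.5), its reductase gene Cyb5r3 (10.8) and Cyb5b (9.93). Near-identical copies lie side by side in the P450, glutathione transferase and glucuronosyltransferase families, so members can share peaks. The equal folds of Cyp1a1 and Cyp1a2 may come from a shared peak. So may those of Ugt1a6a and Ugt1a1 (19.996), which stand in different lists. How reads were split among copies was not tested. At ZT22, 0 genes of these 5 lists had a summit within 50 kb, against 0.157% of all protein-coding genes. This 0 is not a result about the lists.

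**Figure D5:**
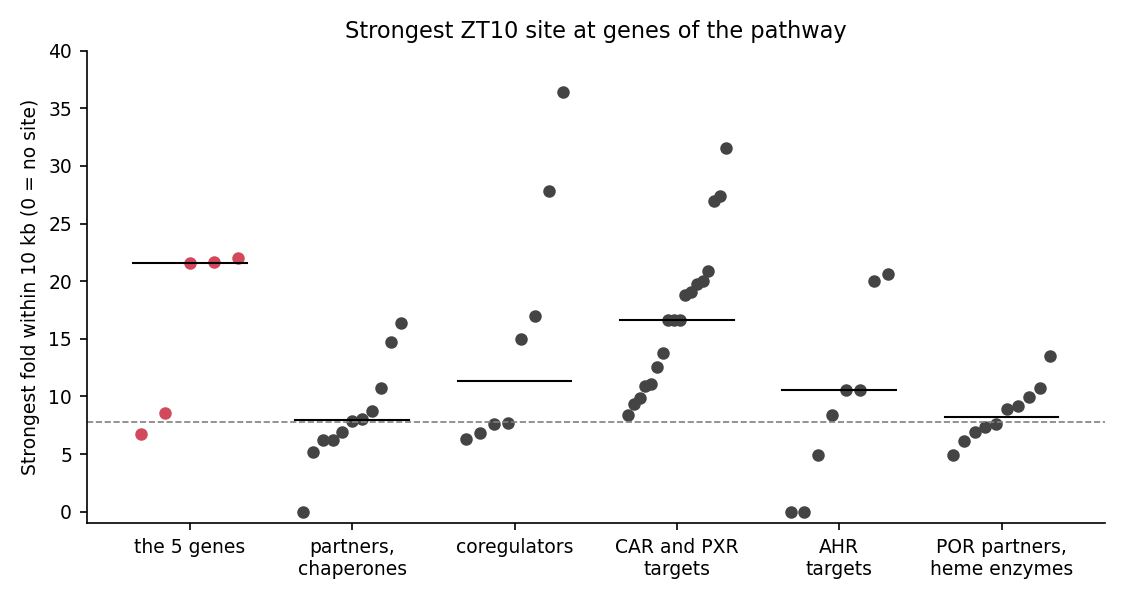
Strongest ZT10 fold within 10 kb (0 where there is no site) for the 5 genes in red and for 5 lists of related genes in grey, 1 point per gene. Black lines are medians of genes with a site, and the dashed line is the median of all protein-coding genes with one (7.82). CAR and PXR targets lie above that line at 18 of 18 genes.

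Among cell type markers, the hepatocyte genes Alb, Apoa1, Ttr, Fgb, Hnf4a and Cps1 had a ZT10 summit within 10 kb at 6 of 6. Their median strongest fold was 15.3, and 5 reached a fold of 10. Kupffer cell markers had one at 0 of 4, lymphocyte markers at 0 of 4, cholangiocyte markers at 1 of 4, stellate cell markers at 2 of 4 and endothelial markers at 3 of 4, with a fold of up to 24.2 at Stab2. Over all protein-coding genes the share is 54.5%, and lists of 4 to 6 genes are too short for a check of the tissue. The marker counts are of binding sites, not expression, and their part in the results above was not tested.

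The genes most like each of the 5 were sought as those with the same number of sites within 50 kb at both times and the closest strongest fold. Over these 2 lists the likeness rests on few values, and ties were common. Wwox was the closest to Por among 18 genes with 16 sites, with a strongest fold of 21.7. For Nr1i3, 8 genes had an equal strongest fold, among them its neighbours Fcer1g, Pcp4l1 and Tomm40l, whose windows hold the same peak. Mier1 and Spata7 tied for Nr1i2 at a fold of 21.6. For Ahr and Arnt, 10 and 14 genes tied, with Aaas and Arg2 first in alphabetical order.

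Around the limit of 50 kb, the farthest included summits lay at 47.8 kb (Por, fold 9.57), 44.8 kb (Nr1i3, 19.9), 44.0 kb (Ahr, 4.76) and 3.81 kb (Nr1i2, 4.19). The nearest excluded ones lay at 52.2 kb from Nr1i2 (fold 5.48), 62.5 kb from Nr1i3 (6.26), 77.5 kb from Arnt (4.34), 79.8 kb from Ahr (6.21) and 142.5 kb from Por (4.10).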

How the data were processed

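Each deposited file is a narrowPeak list without a header, per the labels pooled by the authors from 4 samples. MACS2 2.1.2, BWA 0.7.17, cutadapt 2.3, Picard 2.18.12, SAMtools 1.9, bcl2fastq 2.17, deepTools 3.3.0 and mm10 are named in the submitters' processing notes, without roles. Which control was used is not stated in the labels. The deposited fold is the ratio of the summit to local background, and the −log10 p and −log10 q of each peak are also the authors'. The summit's distance from the peak start is in the deposited lists too.

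Summits were counted with Python 3.11.15 and pandas 2.3.3 against RefSeq gene spans of GRCm38.p6. Exons and genome sequence were not used here. Fragments were solved from the Poisson tail behind each −log10 p, with 1 added above and below in the fold (SciPy 1.17.1). All 31 sites, and 99.2% of ZT10 peaks, came within 0.1 of a whole number, at 83 to 3378 fragments, and 28 of the 31 had the lowest background, 4.14. The solver and the counting were tested on simulated data. The genes, lists and motifs were chosen with earlier results of these data known. All 5 genes are named, with every site of genes holding 8 or fewer and the 5 strongest otherwise, and the 3 strongest genes of each list, except a few items not reported here. All 55 listed genes and 4 of the 5 promoters matched.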

Additional observations from a re-analysis of the deposited data

How the results depend on the processing

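No paired analysis was possible because each time has 1 list made from pooled samples. No sample could be left out either. Over the alternatives, 30 of 34 overall values were labelled unchanged and 4 moved. Of 60 values for single genes, 49 were labelled unchanged and 11 moved. Counts were called unchanged when they stayed within 1.5 times of the main value. Both tallies hold values that could not move, as a −log10 q of at least 5 removed no site. The overall tally also holds the ZT22 counts, which were 0 at every setting tried. The number of sites was 20 with a reach of 10 kb and 17 with only sites whose nearest gene is the member. Inside sites made up 70.0% with a reach of 10 kb, by the construction of the window. With 1 mismatch allowed, the half-site was in 4 of 4 promoters, as in 92.6% of all. With only sites nearest to the member, the strongest Nr1i3 fold was 11.7, against 21.7. Nr1i2 and Arnt had 1 site each at a −log10 q of at least 10. At least 5 removed none, so it says nothing of stability. A pseudocount of 0 solved 40.9% of 2000 peaks and was not usable.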

Other observations

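Some neighbouring peaks at Por and Nr1i3 lay close together, while most were farther apart. In Por the 3 strongest peaks, side by side, were separated by 147 bp and 140 bp. Short gaps were not limited to these, as other peaks of the Por window, the weakest included, were separated by 144 bp, 176 bp and 192 bp. The remaining gaps there were 998 bp to 31492 bp. In the Nr1i3 window the peaks in Apoa2 and Fcer1g were 111 bp apart, the only short gap of 6 there, as the others were 3369 bp to 31606 bp. When peaks no more than 500 bp apart were joined, a distance chosen after seeing the data, the 3 Por peaks formed a stretch of 26.5 kb, chr5:135673033-135699537, which covers the annotated start. It was the 9th longest of 25911 stretches, whose median length was 1734 bp. The stretch beside Nr1i3 was 14.0 kb long, over Apoa2 and Fcer1g, and ranked 181st. The single Nr1i2 peak of 18.2 kb ranked 65th. The longest stretches at Ahr (6.24 kb) and Arnt (2.92 kb) ranked 1731st and 6708th.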
